A study of Homo sapiens with 38 samples.

Results

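The E2F transcription factors and the DP proteins they pair with were followed through 3 RNA-seq experiments on human neuroblastoma cell lines. The set held 10 genes, E2F1 to E2F8 together with TFDP1 and TFDP2, taken by gene symbol from count files that list 50652 genes for BE2C cells and 50778 genes for the other lines, with 49070 in common. The rule uses no measured value. All 10 were present in each of the 38 files and passed edgeR's expression filter in all 3 experiments.

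E2F proteins control the genes that take a cell from G1 into S phase, and they are held in check by RB1 and its relatives RBL1 and RBL2, the pocket proteins. When cyclin D with CDK4 or CDK6, and then cyclin E with CDK2, phosphorylate the pocket proteins, E2F is set free. E2F1, E2F2 and E2F3 are the activators of the family, E2F4 and E2F5 act mainly as repressors together with the pocket proteins, E2F6 represses without a pocket protein as part of Polycomb complexes, and E2F7 and E2F8 are atypical members that repress E2F targets without a DP partner. TFDP1 and TFDP2 encode the DP subunits that the typical E2Fs need to bind DNA. In neuroblastoma the pathway is of interest because MYCN, the oncogene amplified in many high-risk tumours, drives cells through the same G1 checkpoint.

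BE2C cells, a neuroblastoma line with MYCN amplification, were transfected for 72 h with a control siRNA (siCtrl, 2 libraries) or with 1 of 3 siRNAs against the histone demethylase KDM6B (N1, N2 and N33, 1 library each), or were exposed to 2.5 μM of the KDM6 inhibitor GSK-J4 for 0 h, 24 h or 48 h (2 libraries each). CHLA15 and CHLA20 cells received palbociclib, an inhibitor of CDK4 and CDK6, at 300 nM, and NB1643 and NB1691 cells received it at 3 μM, in each case for 72 h beside a control without the drug (2 libraries per line and condition). The sample labels name no vehicle control at 24 h or 48 h, so an effect of GSK-J4 and one of time in culture cannot be told apart. They do not say whether libraries of a group came from separate cultures, and p-values therefore measure only the spread between these libraries. In bulk RNA, fewer cells in cycle and less RNA of a gene per cell cannot be told apart.

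The proximal promoters are shown first, because several E2F genes carry E2F sites themselves. RefSeq promoter entries were matched for 8 of the 10 genes, and all 11 entries occurred exactly once in GRCh37. E2F8 had no entry, and the chromosome of E2F5 was left out of the matching, so its promoter was not examined. The motif searched was TTTCCCGC, TTTCGCGC, TTTGCCGC or TTTGGCGC on either strand, which 3.31% of 35116 promoters of 300 bases held. It lay in the promoters of E2F1, E2F2, E2F3 and TFDP1, and was not matched in those of E2F4, E2F6, E2F7 and TFDP2. The 150 bases before the RefSeq start are given 5′ to 3′ in the direction of transcription for the 4 genes with a match and for E2F4 and E2F7 without one, with the matched letters in capitals.
E2F1 (chr20:32274192-32274341, minus strand): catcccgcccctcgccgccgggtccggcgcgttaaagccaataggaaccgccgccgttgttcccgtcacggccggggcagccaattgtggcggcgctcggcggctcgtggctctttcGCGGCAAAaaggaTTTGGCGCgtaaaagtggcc
E2F2 (chr1:23857726-23857875, minus strand): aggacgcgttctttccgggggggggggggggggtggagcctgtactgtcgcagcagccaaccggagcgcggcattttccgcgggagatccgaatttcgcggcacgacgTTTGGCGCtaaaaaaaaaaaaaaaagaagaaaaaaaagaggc
E2F3 (chr6:20401960-20402109, plus strand): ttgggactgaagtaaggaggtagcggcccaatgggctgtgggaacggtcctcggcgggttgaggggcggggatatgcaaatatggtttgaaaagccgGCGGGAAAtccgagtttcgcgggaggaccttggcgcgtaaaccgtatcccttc
TFDP1 (chr13:114238918-114239067, plus strand): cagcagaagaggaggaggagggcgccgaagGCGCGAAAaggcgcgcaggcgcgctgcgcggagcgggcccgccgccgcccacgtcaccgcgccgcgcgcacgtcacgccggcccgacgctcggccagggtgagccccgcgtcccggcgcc
E2F4 (chr16:67225908-67226057, plus strand): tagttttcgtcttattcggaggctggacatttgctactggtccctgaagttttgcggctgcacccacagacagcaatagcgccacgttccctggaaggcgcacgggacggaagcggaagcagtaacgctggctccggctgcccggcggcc
E2F7 (chr12:77459350-77459499, minus strand): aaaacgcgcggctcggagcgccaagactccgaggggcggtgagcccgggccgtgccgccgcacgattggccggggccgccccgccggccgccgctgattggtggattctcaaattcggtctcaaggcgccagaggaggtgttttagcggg
E2F1 held 2 matches, at 33 to 26 and at 20 to 13 bases before its start (positions -33 to -26 and -20 to -13), E2F2 held 1 at -42 to -35, E2F3 1 at -53 to -46 and TFDP1 1 at -120 to -113. A match of letters is a description of the sequence and does not show binding. The E-box CACGTG, the site of MYC proteins, was matched at -80 to -75 of a second start of E2F3 and in no other of these promoters, against 7.26% of all promoters. A motif missing from these windows may lie elsewhere in the gene.

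In GRCh37 the activators lie on 3 chromosomes, E2F1 at chr20:32263283-32274191 (minus strand), E2F2 at chr1:23832930-23857725 (minus) and E2F3 at chr6:20402110-20493945 (plus). The repressor E2F4 lies at chr16:67226058-67232821 (plus) and E2F5 at chr8:86089389-86129387 (plus). E2F6 lies at chr2:11584501-11606303 (minus), E2F7 at chr12:77415028-77459349 (minus) and E2F8 at chr11:19245610-19263167 (minus). TFDP1 lies at chr13:114239036-114295788 (plus) and TFDP2 at chr3:141663270-141868386 (minus). Counts covered the exons of each gene as 1 value, so promoters and isoforms were not told apart. Of the exon bases of E2F5, 16.5% overlap exons of the antisense gene RBIS. Strand use in the counting is not given in the sources used here, and the level of E2F5 is therefore uncertain. Pseudogenes of the family held at most 16 counts in any library.

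Counts assigned to genes ranged from 41227956 to 50776662 per library for the siRNAs, from 36186567 to 63433818 for GSK-J4 and from 45457371 to 93011010 for palbociclib. Levels are given as CPM, counts scaled to the size of the library after TMM normalization, and 3 counts, used as the floor, amounted to at most 0.0829 CPM. KDM6B RNA was not lower in the 3 libraries labelled siKDM6B (8.12 ± 0.947 CPM, SD, n = 3) than in siCtrl (7.62 ± 1.62 CPM, n = 2), so those libraries are named by their labels only. The N33 library also stood apart in MYCN, with 466 CPM against 1596 to 1742 CPM in the other 4 libraries. Against a list of 7 markers of adrenergic neuroblastoma, CHLA15, CHLA20 and NB1643 summed to between 2007 and 3096 CPM and BE2C to between 521 and 1170 CPM, with all 7 markers above 1 CPM. The NB1691 libraries summed to 217 to 251 CPM, with TH at 0.559 to 1.54 CPM. They held 52371 to 62339 CPM of 6 mesenchymal markers, where the other lines held at most 1377 CPM. Of 5 fibroblast markers they held 13286 to 17010 CPM, where the others held at most 334 CPM. FN1 made up most of the first sum (50246 to 60594 CPM) and COL1A1 most of the second (11837 to 15327 CPM). Not all fibroblast markers were higher: DCN was at 1.66 to 2.36 CPM in NB1691 against 81.2 to 112 in CHLA15. COL1A2 was at 0.744 to 1.45 against 1.51 to 3.99, while LUM was at 1417 to 1644 against 50.9 to 70.4. In the untreated lines MYCN was at 86.3 ± 0.280 CPM in NB1691, 2.29 ± 0.0106 in CHLA15, 3.14 ± 0.356 in CHLA20 and 3175 ± 116 in NB1643 (SD, n = 2 each). CDK4 was at 5746 ± 99.4 CPM in untreated NB1691, and at 224 to 267 CPM in the other 3 untreated lines. The part of these differences in the E2F values of NB1691 was not tested. Leukocyte markers summed to at most 0.738 CPM in any library.

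TFDP1 was the most abundant of the 10 transcripts in every control group when CPM was divided by the length of the merged exons. Across the 6 control groups (siCtrl, BE2C at 0 h and the 4 untreated lines) it was at rank 1 each time, at 26.4 to 64.9 CPM per kilobase. E2F1 was at rank 2 in 5 groups and at rank 3 in NB1691, at 17.3 to 43.3 CPM per kilobase. E2F3 held rank 3 or 4 and E2F4 ranks 2 to 5, so that the main typical E2Fs of both classes stood in the upper part of the order. In BE2C at 0 h the levels per kilobase were 46.8 for TFDP1, 41.1 for E2F1, 20.6 for E2F4, 14.0 for E2F3 and 10.4 for E2F6. They were 6.22 for TFDP2, 6.04 for E2F2, 4.90 for E2F7, 3.77 for E2F5 and 2.11 for E2F8. The repressor E2F5 and the atypical E2F7 and E2F8 each lay within ranks 7 to 10, TFDP2 within ranks 6 to 8, and E2F2 moved most, from rank 5 in CHLA20 to rank 9 in NB1643 and NB1691. The highest level was between 17.99 and 72.1 times the lowest within a group. Using the longest transcript as the length moved no rank range by more than 1 place.

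**Figure D1:**
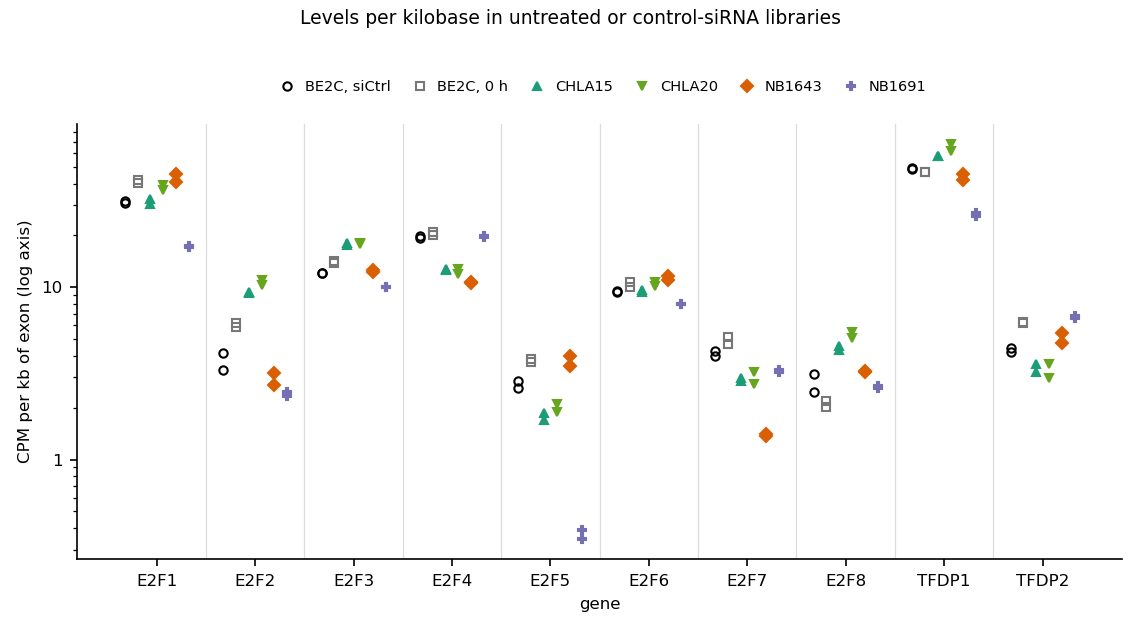
Level of each of the 10 genes per library in the 6 control groups, as TMM-scaled CPM per kilobase of merged exons on a log axis, with points for libraries. TFDP1 lies highest in every group (26.4 to 64.9 CPM per kilobase on average), and E2F5 in NB1691 lies lowest of all, at 0.366.

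The 4 untreated lines of the palbociclib experiment differed in most E2F genes. By edgeR's quasi-likelihood test with Benjamini-Hochberg adjustment over 22133 genes, 49 of the 60 pairwise differences of the 10 genes had an adjusted p under 0.05. CHLA15 and CHLA20 differed in 2 of the 10, beside 12.4% of all genes tested. CHLA15 differed from NB1643 in 10 (64.6% of all genes) and from NB1691 in 9 (78%), CHLA20 from NB1643 in 9 (64.5%) and from NB1691 in 9 (77.5%), and NB1643 from NB1691 in 10 (80.7%). These counts were read only beside the shares of all genes, which were high between lines.

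Among the activators, E2F1 was at 116 ± 8.76 CPM in NB1643, 102 ± 4.90 in CHLA20, 85.0 ± 4.23 in CHLA15 and 46.4 ± 0.382 in NB1691 (SD, n = 2 each), and each neighbour in that order differed from the next (largest edgeR adjusted p = 0.00722). E2F2 separated the lines more widely. It was at 58.4 ± 2.52 CPM in CHLA20 and 50.8 ± 0.749 in CHLA15, which did not differ beyond their spread (edgeR adjusted p = 0.0987), and at 16.1 ± 1.79 in NB1643 and 13.1 ± 0.511 in NB1691, which did (adjusted p = 0.0041). E2F3 followed the same order, at 93.5 ± 1.11, 92.4 ± 1.31, 64.2 ± 1.195 and 52.4 ± 0.0771 CPM, again with CHLA20 and CHLA15 not separated (adjusted p = 0.887).

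The repressor E2F4 was highest in NB1691, at 71.0 ± 0.234 CPM, and lowest in NB1643, at 38.3 ± 0.367, with CHLA15 and CHLA20 between them at 45.8 ± 0.529 and 44.2 ± 2.08. E2F5 had the largest difference of any of the 10 between lines, 22.4 ± 2.10 CPM in NB1643 against 2.20 ± 0.186 in NB1691, a 10.1-fold difference (log2 3.34, SE 0.108, adjusted p = 6.73e-16). CHLA20 and CHLA15 held E2F5 at 11.97 ± 0.885 and 10.7 ± 0.672 CPM. E2F6 ran from 32.6 ± 0.182 CPM in NB1691 to 45.9 ± 1.72 in NB1643, and neither NB1643 and CHLA20 nor CHLA20 and CHLA15 were separated (adjusted p = 0.0973 and 0.157).

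The atypical E2F7 was low in NB1643, at 8.74 ± 0.149 CPM, and lay between 18.3 and 20.5 CPM in the other 3 lines, among which no pair differed under TMM scaling. E2F8 was highest in CHLA20 at 21.8 ± 1.15 CPM, followed by CHLA15 at 18.3 ± 0.685, NB1643 at 13.4 ± 0.160 and NB1691 at 10.9 ± 0.208, with every neighbour separated. TFDP1 fell in the order 243 ± 17.2 CPM in CHLA20, 217 ± 0.477 in CHLA15 (adjusted p = 0.0529 between them), 164 ± 8.47 in NB1643 and 99.0 ± 2.96 in NB1691. TFDP2 ran the other way, with 79.9 ± 0.899 CPM in NB1691, 60.5 ± 6.16 in NB1643, 40.7 ± 3.17 in CHLA15 and 38.9 ± 5.12 in CHLA20. Scaling by library totals raised the median of all genes by 0.399 to 0.408 (log2) in the comparisons of NB1691 with the other lines. Under it E2F7 turned from lower to higher in CHLA15 and CHLA20 than in NB1691 (log2 0.24 and 0.28), and the difference of TFDP2 between NB1643 and NB1691 turned from -0.40 to 0.018. The largest difference of E2F6 between lines grew from 0.49 to 0.91 (log2) under it, and that of E2F4 shrank from 0.89 to 0.47.

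With palbociclib E2F2, E2F7 and E2F8 were lower in all 4 lines and E2F1 in 3 of them, where E2F8 fell by 98.9% in NB1643 and E2F2 fell by 19.9% in CHLA15. In CHLA15, 4 of the 10 genes were lower and 1 higher at an edgeR adjusted p under 0.05, beside 15.6% of all tested genes lower and 14.2% higher. In CHLA20, 6 were lower (15.9% of all genes) and 0 higher (13.7%). In NB1643, 7 were lower (19.7%) and 0 higher (20.3%), and in NB1691 6 were lower (15.5%) and 1 higher (17.4%). Because CHLA15 and CHLA20 had 300 nM and the NB lines 3 μM, the 2 pairs of lines are set side by side and only lines with the same dose were tested against each other.

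E2F8, a repressor of E2F1 transcription and of other E2F targets, had the largest fall of the 10 genes in NB1643 and NB1691. In NB1643 it was at 13.5 and 13.3 CPM in the control libraries and at 0.138 and 0.144 CPM with palbociclib, from 9 and 7 counts, which is above the floor of 3 counts. The fitted log2 fold change was -6.55 (SE 0.144, 93.9-fold lower, adjusted p = 7.35e-17). In NB1691 it was at 10.8 and 11.1 CPM in the control and at 0.713 and 0.623 with palbociclib (log2 fold change -4.02, SE 0.111). In CHLA20 it fell from 21.0 and 22.7 to 10.1 and 9.95 CPM (log2 -1.12, SE 0.0695), and in CHLA15 from 18.8 and 17.8 to 12.02 and 12.2 CPM (log2 -0.60, SE 0.0687). Treated and control libraries did not overlap in any line, as was so for 60% to 70.3% of all tested genes per line.

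E2F7, the other atypical E2F, moved with it. In NB1643 it was at 8.84 and 8.63 CPM in the control and at 0.230 and 0.266 CPM with palbociclib, from 15 and 13 counts (log2 fold change -5.14, SE 0.175, 35.3-fold lower). In NB1691 it fell from 20.9 and 20.2 to 3.95 and 4.498 CPM, a log2 change of -2.29 (SE 0.0989). CHLA20 went from 20.2 and 17.3 to 8.24 and 7.44 CPM (log2 -1.26), and CHLA15 from 17.9 and 18.8 to 8.28 and 9.43 CPM (log2 -1.05). In CHLA20 and CHLA15 E2F7 thus had the largest fitted fall of the 10 genes, ahead of E2F8. Summed per kilobase, E2F7 and E2F8 fell by 98.4% in NB1643, 85.9% in NB1691, 55.6% in CHLA20 and 41.0% in CHLA15.

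Of the activators, E2F2 had a larger fitted fall than E2F1 in every line, while the changes of E2F3 were within 0.23 on the log2 scale. E2F2 was at 17.3 and 14.8 CPM in NB1643 controls and 1.06 and 1.39 CPM with palbociclib (log2 fold change -3.74, SE 0.125, 13.4-fold lower). In NB1691 it fell from 12.8 and 13.5 to 1.91 and 1.45 CPM (log2 -2.95, SE 0.120), in CHLA20 from 56.7 and 60.2 to 36.3 and 34.4 CPM (log2 -0.73, SE 0.0779), and in CHLA15 from 50.3 and 51.4 to 40.1 and 41.3 CPM (log2 -0.32, SE 0.0775). E2F2 thus fell by 19.9% in CHLA15 and fell by 92.5% in NB1643.

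E2F1 fell from 123 and 110.2 CPM to 22.0 and 21.9 in NB1643 (log2 fold change -2.41, SE 0.0644, 5.30-fold lower) and from 46.2 and 46.7 to 17.7 and 17.4 in NB1691 (log2 -1.40, SE 0.0653). In CHLA20 it fell from 98.2 and 105 to 77.6 and 76.0 CPM (log2 -0.41, SE 0.0593, edgeR adjusted p = 3.29e-05). In CHLA15 the groups overlapped, with 82.1 and 88.0 CPM in the control and 89.8 and 85.2 with palbociclib (log2 0.04, 95% interval -0.08 to 0.17), so that a fall of E2F1 of more than 0.08 on the log2 scale lay outside the interval there. E2F3 rose in CHLA15, from 93.3 and 91.4 to 108 and 106 CPM (log2 0.21, SE 0.0463, adjusted p = 0.00166). It fell in NB1643, from 63.4 and 65.0 to 55.1 and 54.2 CPM (log2 -0.23, SE 0.0476). Its intervals were 0.00 to 0.20 in CHLA20 and -0.18 to 0.02 in NB1691, neither of which passed the test.

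The repressors moved by less than the activators E2F1 and E2F2 in the NB lines. E2F4 was at 38.6 and 38.1 CPM in NB1643 controls and 39.7 and 37.3 with palbociclib, overlapping groups with a log2 interval of -0.11 to 0.12. It fell in CHLA15 from 45.4 and 46.2 to 39.1 and 38.6 CPM (log2 -0.24, SE 0.0533, adjusted p = 0.00216). In NB1691 it was at 70.9 and 71.2 CPM against 63.6 and 63.5 (log2 -0.16, adjusted p = 0.0234), a call that was lost when any 1 of the 4 NB1691 libraries was left out (adjusted p up to 0.126). E2F5 fell in NB1643 from 20.9 and 23.9 to 14.1 and 13.8 CPM (log2 -0.68, SE 0.0886, adjusted p = 5.01e-06). In CHLA20 it was at 11.4 and 12.6 CPM against 9.55 and 10.3 (log2 -0.27, adjusted p = 0.0384), and without replicate 1 of the treated or replicate 2 of the control libraries the adjusted p was 0.202 and 0.185. In NB1691 E2F5 was near 2 CPM in all 4 libraries.

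E2F6 passed the test in NB1691 alone, where it was at 32.7 and 32.5 CPM in the control and 28.0 and 28.5 with palbociclib (log2 -0.21, SE 0.0579, adjusted p = 0.0095). The call was lost on leaving out 3 of the 4 NB1691 libraries in turn (adjusted p up to 0.0848). In CHLA15, CHLA20 and NB1643 the log2 changes of E2F6 were 0.03, 0.02 and -0.06. The TFDP1 level fell in NB1643 from 158 and 170 CPM to 114 and 115 (log2 -0.51, SE 0.0552, adjusted p = 5.14e-07). In CHLA20 it was at 231 and 255 CPM against 224 and 215 (adjusted p = 0.0457), a call lost without either treated library or replicate 2 of the control (adjusted p up to 0.267). TFDP2 rose in NB1691 from 79.3 and 80.6 to 98.4 and 106 CPM (log2 0.35, SE 0.0799, edgeR adjusted p = 0.00201). In CHLA15, CHLA20 and NB1643 its log2 changes of 0.15 to 0.20 did not pass the test. Both treated libraries lay above both controls there too, but groups did not overlap for 63.3%, 60% and 62.5% of all tested genes.

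**Figure D2:**
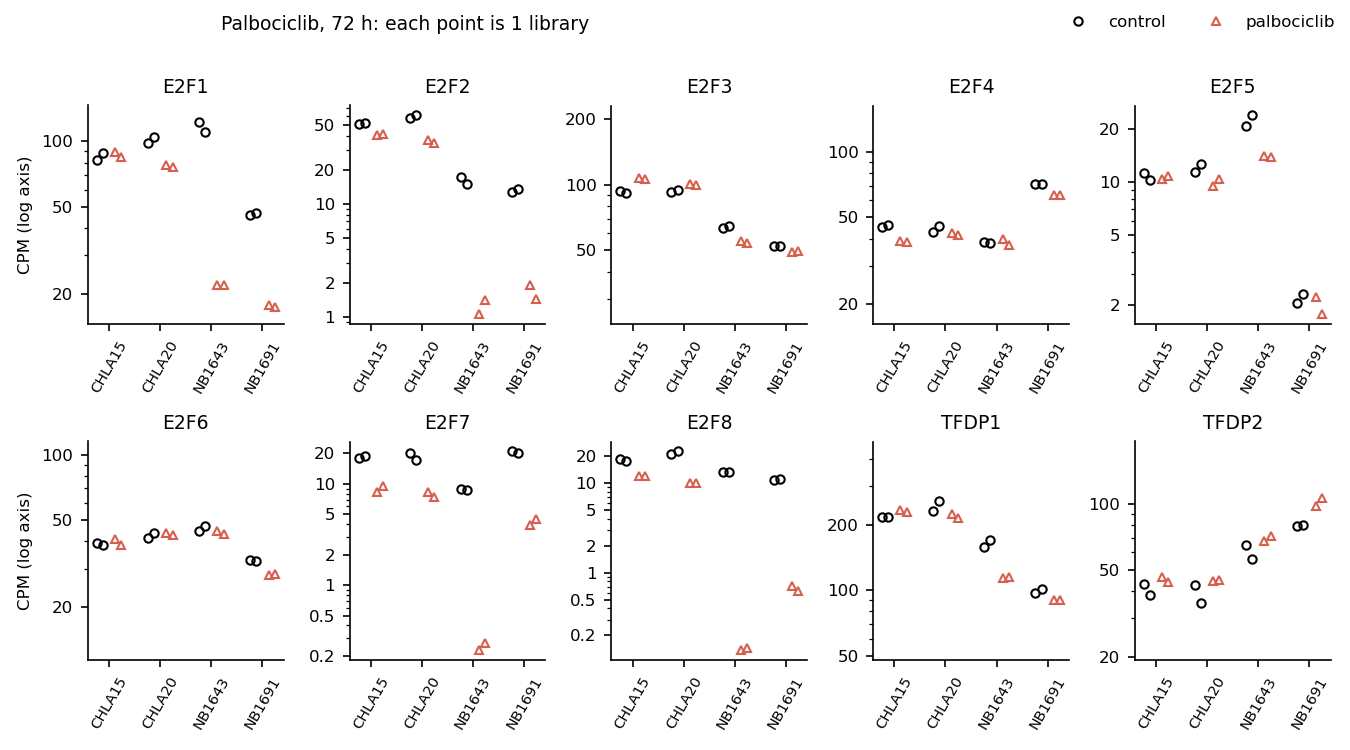
CPM of each gene in the control and palbociclib libraries of the 4 lines, on a log axis with 1 point per library. E2F8 in NB1643 goes from 13.5 and 13.3 CPM to 0.138 and 0.144 CPM, and E2F6 in NB1691 goes from 32.7 and 32.5 to 28.0 and 28.5 CPM.

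Effects were compared between lines that received the same dose through the interaction of line and treatment. Between CHLA20 and CHLA15 the log2 changes of 2 genes differed, beside 0.867% of all tested genes with a lower effect in CHLA20. That of E2F1 was lower by 0.45 in CHLA20 (difference -0.45, SE 0.0837, edgeR adjusted p = 0.0106) and that of E2F8 by 0.52 (difference -0.52, SE 0.0976, adjusted p = 0.0106). The call of E2F1 was lost without replicate 1 of treated or control CHLA15 or either treated CHLA20 library (adjusted p up to 0.0807), and that of E2F8 without replicate 2 of control CHLA15 or either treated CHLA20 library (adjusted p up to 0.0703). E2F2 had a difference of -0.40 (interval -0.64 to -0.17, adjusted p = 0.0644).

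Between NB1691 and NB1643 the effect was smaller in NB1691 for 6 of the 10 genes, beside 12% of all tested genes with a higher value there. The differences were 2.85 for E2F7 (SE 0.238), 2.53 for E2F8 (SE 0.269), 1.004 for E2F1 (SE 0.0905) and 0.79 for E2F2 (SE 0.198), all on the log2 scale, and 0.56 for E2F5 and 0.38 for TFDP1. The difference of E2F2 lost its call without replicate 1 of palbociclib-treated NB1643 (edgeR adjusted p = 0.103) or NB1691 (adjusted p = 0.127) and in a fit of the compared groups alone (adjusted p = 0.0565). That of E2F5 lost it without replicate 1 of palbociclib-treated NB1691 (adjusted p = 0.246), replicate 1 of its control (adjusted p = 0.1004) or replicate 2 of palbociclib-treated NB1643 (adjusted p = 0.0536), and with limma-voom (adjusted p = 0.0649). The remaining 4 genes kept theirs in every alternative that was run. E2F3, E2F4, E2F6 and TFDP2 had differences between -0.17 and 0.16 that did not pass.

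In BE2C cells exposed to GSK-J4 the fitted log2 changes of the 10 genes against 0 h lay between -0.60 and 0.41, and at 48 h E2F4 had the largest. At 24 h, 2 of the 10 genes were higher than at 0 h at an edgeR adjusted p under 0.05, beside 27.3% of 17734 tested genes, and 4 were lower, beside 28%. At 48 h, 1 was higher (37.1% of all genes) and 6 were lower (34.4%). From 24 h to 48 h, 0 were higher (25.9%) and 5 lower (28%). Both times were set against the same 0 h libraries, so the values at 24 h and 48 h are given side by side and not as separate evidence. The common coefficient of variation between libraries was 0.0219 in this experiment, against 0.0523 with palbociclib and 0.35 with siRNA, so smaller changes passed the test here.

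E2F4, the main repressor by level, fell at each step. It was at 72.7 and 75.3 CPM at 0 h, 55.8 and 60.4 at 24 h and 47.4 and 50.5 at 48 h. The log2 fold change against 0 h was -0.35 at 24 h (SE 0.0422, edgeR adjusted p = 1.03e-09) and -0.60 at 48 h (SE 0.0422, 1.51-fold lower, adjusted p = 3.45e-17). No library of one time overlapped those of another, as was so for 75.3% to 84.8% of all tested genes per comparison. E2F5 was at 23.1 and 22.1 CPM at 0 h, 27.02 and 25.6 at 24 h and 25.1 and 25.4 at 48 h. Its log2 change was 0.22 at 24 h (adjusted p = 0.00113) and 0.16 at 48 h (adjusted p = 0.0109), the latter not called by DESeq2 (adjusted p = 0.129) or by edgeR without replicate 2 at 0 h (adjusted p = 0.126) or at 48 h (adjusted p = 0.0586).

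The activators were lower at 48 h. E2F1 was at 113 and 108 CPM at 0 h, at 103 and 111 at 24 h, where the groups overlapped, and at 90.3 and 87.9 at 48 h (log2 fold change -0.31, SE 0.0364, adjusted p = 2.44e-10). E2F3 fell at 24 h already, from 71.8 and 73.5 to 63.8 and 64.8 CPM (log2 -0.18, adjusted p = 0.000116), and was at 62.4 and 62.0 at 48 h (log2 -0.22). E2F2 was at 32.2 and 33.8 CPM at 0 h, 33.2 and 34.3 at 24 h and 30.6 and 27.4 at 48 h (log2 -0.18, adjusted p = 0.00258). Scaling by upper quartiles, which raised the median of all genes at 48 h by 0.110 (log2), left E2F2 without a call (adjusted p = 0.232), as did leaving out replicate 2 at 48 h (adjusted p = 0.107).

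The atypical E2F7 rose and came back. It was at 29.3 and 32.3 CPM at 0 h, 41.2 and 40.4 at 24 h and 30.6 and 29.6 at 48 h, with a log2 change of 0.41 at 24 h (SE 0.0513, adjusted p = 3.37e-09) and of -0.44 from 24 h to 48 h (SE 0.0481, adjusted p = 1.04e-10). E2F7 was the only one of the 10 genes to rise at 24 h and then fall below that level by 48 h with both steps past the test. E2F8 was at 9.05 and 8.39 CPM at 0 h, 7.97 and 8.26 at 24 h and 7.94 and 7.23 at 48 h (log2 -0.20 at 48 h, adjusted p = 0.0528). At 48 h it passed with DESeq2 size factors within edgeR (adjusted p = 0.026) and in an edgeR fit of the compared groups alone (adjusted p = 0.0356). Its log2 change at 48 h was negative in every alternative, between -0.28 and -0.086. E2F6 stayed between 40.7 and 44.6 CPM in all 6 libraries.

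Both DP partners were lower with GSK-J4. TFDP1 was at 175 CPM in both libraries at 0 h, 163 and 164 at 24 h and 139.7 and 142 at 48 h (log2 -0.10 and -0.32, the latter with SE 0.0306 and adjusted p = 9.6e-13). TFDP2 was at 73.4 and 74.7 CPM at 0 h, 67.7 and 66.7 at 24 h and 68.5 and 67.3 at 48 h (log2 -0.14 and -0.13). Under upper-quartile scaling TFDP1 at 24 h (adjusted p = 0.147) and TFDP2 at 48 h (adjusted p = 0.725) did not pass. MYCN fell over the same times, from 3015 ± 16.3 to 1693 ± 34.0 and 1450 ± 23.7 CPM, and KDM6B rose from 7.79 ± 0.521 to 16.3 ± 0.336 and 23.2 ± 0.614 CPM (SD, n = 2 each). Their part in the E2F changes was not tested.

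**Figure D3:**
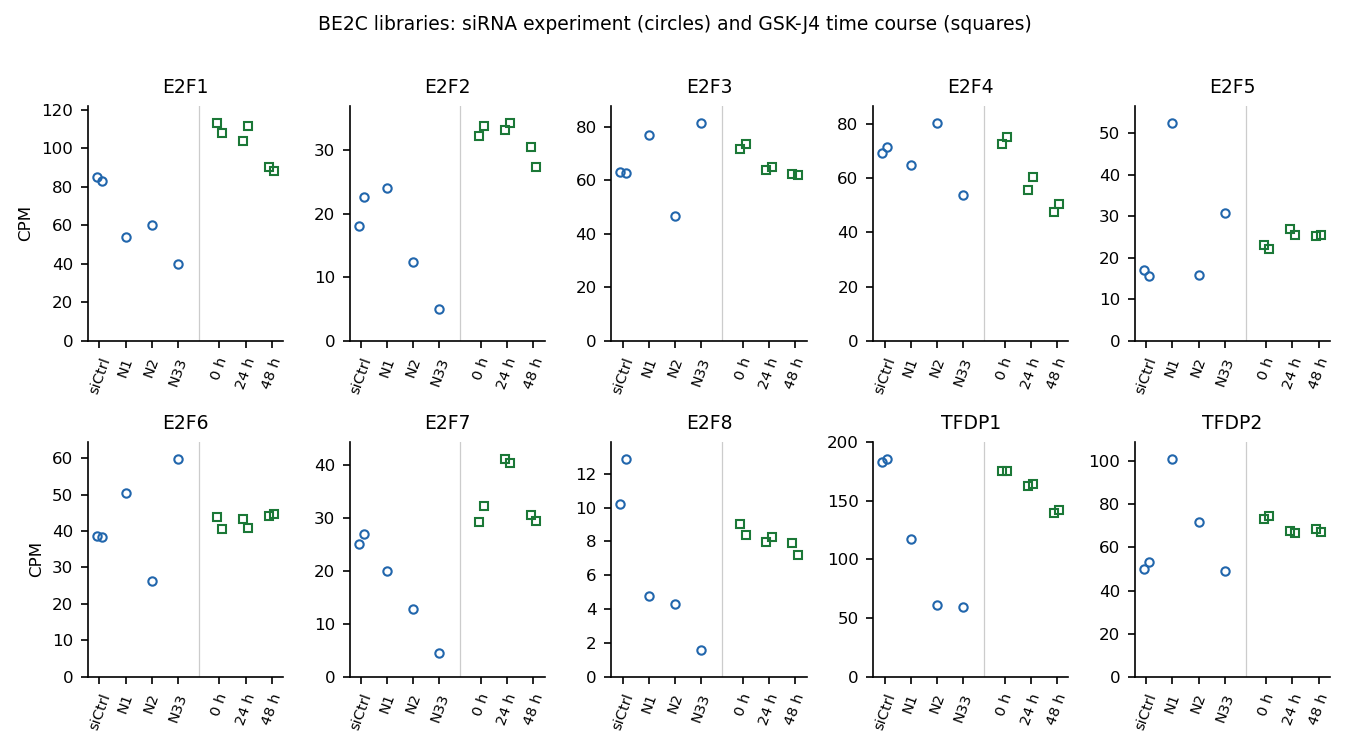
CPM of each gene in the BE2C libraries of the siRNA and GSK-J4 experiments, on a linear axis with 1 point per library. E2F4 steps down from 0 h (72.7 and 75.3 CPM) to 48 h (47.4 and 50.5 CPM), and E2F8 in the 3 libraries labelled siKDM6B (1.61 to 4.78 CPM) lies below both siCtrl libraries (10.2 and 12.9 CPM).

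In the libraries labelled siKDM6B no gene passed the test. Of 17472 genes 0 had an edgeR adjusted p under 0.05 (0% of all genes; smallest 0.279), 1615 had an unadjusted p under 0.05, DESeq2 called 157 and limma-voom 0, and none of these called any of the 10. For 4 of the 10 genes the 3 libraries did not overlap siCtrl, beside 33.1% of all tested genes. These were E2F1, E2F7, E2F8 and TFDP1, all lower, and 3 of them had an unadjusted p under 0.05 (0.0235 for E2F1, 0.0115 for E2F8 and 0.0105 for TFDP1).

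TFDP1 was at 182 and 185 CPM in siCtrl, at 117 CPM with N1, 61.4 with N2 and 59.3 with N33 (log2 fold change -1.21, SE 0.341, edgeR adjusted p = 0.52). E2F8 was at 10.2 and 12.9 CPM in siCtrl and, in the same order of siRNAs, at 4.78, 4.28 and 1.61 CPM (log2 -1.70, SE 0.488, adjusted p = 0.52). E2F1 was at 85.0 and 82.95 CPM and at 53.6, 59.9 and 39.8 CPM (log2 -0.72, SE 0.243, adjusted p = 0.523). E2F7 was at 25.1 and 26.97 CPM and at 20.0, 12.8 and 4.42 CPM (log2 -1.07, SE 0.564, adjusted p = 0.607). N33 was the lowest library for each of the 4. Without it the log2 changes were -1.04 for TFDP1, -1.35 for E2F8, -0.56 for E2F1 and -0.67 for E2F7.

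The other 6 genes differed between the siRNAs more than between the groups. E2F2 stood at 18.1 and 22.6 CPM under siCtrl, against 24.1 with N1, 12.4 with N2 and 5.06 with N33. E2F3 had 63.1 and 62.5 CPM with siCtrl against 76.9, 46.5 and 81.4 CPM with the siRNAs in that order, and E2F6 had 38.5 and 38.3 CPM against 50.3, 26.2 and 59.8, both highest with N33 and lowest with N2. The repressor E2F4 stood at 69.4 and 71.6 CPM under siCtrl, against 65.1, 80.4 and 53.6. E2F5 had 17.1 and 15.6 CPM with siCtrl against 52.5 with N1, 15.9 with N2 and 30.7 with N33. TFDP2 stood at 50.2 and 53.0 CPM under siCtrl, against 101 with N1, 71.7 with N2 and 48.9 with N33. The log2 intervals of these 6 genes all contained 0 and reached from -1.98 to 2.19. With each of the 10 deposited siRNA files taken as a sample, which counts the files of 1 library as replicates, E2F1, E2F8 and TFDP1 passed (edgeR adjusted p = 0.00855, 0.0102 and 0.00837).

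**Figure D4:**
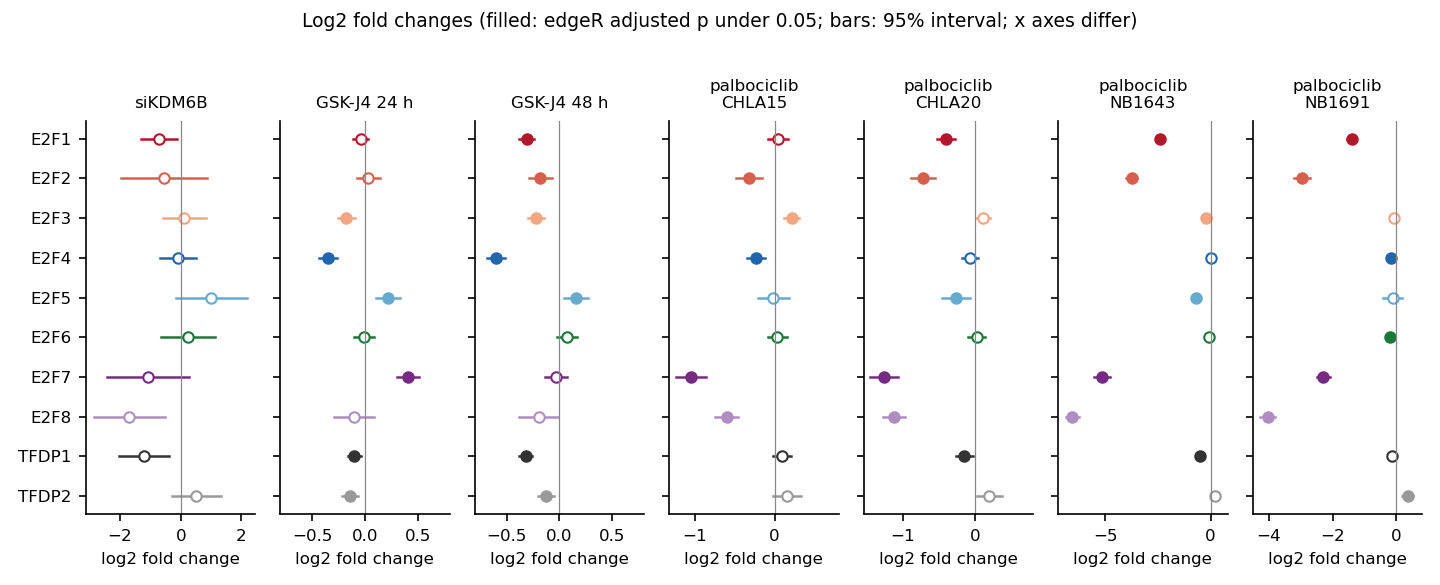
Log2 fold change of each gene in the 7 comparisons with a control, with 95% intervals from edgeR and filled points for an adjusted p under 0.05. The changes of E2F7 and E2F8 in NB1643 (-5.14 and -6.55) exceed all others, while the siKDM6B intervals are wide and hold no filled point.

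Set side by side over the palbociclib and GSK-J4 comparisons, E2F2 was lower in all 4 palbociclib comparisons and at 48 h of GSK-J4, and E2F1 in 3 of the 4 and at 48 h. E2F7 and E2F8 were lower in all 4 lines, whereas with GSK-J4 E2F7 was higher at 24 h. E2F8 did not pass at either time of GSK-J4 in the main fit, but lay close to the threshold at 48 h (log2 -0.20, edgeR adjusted p = 0.0528). E2F4 passed as lower in CHLA15, NB1691 and both GSK-J4 times. E2F5 passed as higher with GSK-J4 and as lower in CHLA20 and NB1643. E2F6 passed in NB1691 only. The siKDM6B comparison made no call on any gene and adds nothing to these counts.

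The balance of the classes was described by the ratio of summed activators (E2F1, E2F2 and E2F3) to summed repressors (E2F4 and E2F5) in CPM per kilobase, with no test. Activators exceeded repressors 4.04-fold in untreated CHLA15, 4.66-fold in CHLA20 and 4.07-fold in NB1643, but 1.48-fold in NB1691, 2.51-fold in BE2C at 0 h and 2.11-fold with siCtrl. The size of these ratios depends on the length used. E2F4 has 3596 bases of merged exons but 2615 in its longest transcript. With the latter its level in untreated NB1691 was 27.2 in place of 19.7 CPM per kilobase, while E2F1 stayed at 17.3. The ratios were not recomputed with the longest transcript. With palbociclib the log2 ratio fell from between 1.95 and 2.10 to between 0.51 and 0.57 in NB1643, and from 0.56 and 0.57 to -0.14 in both libraries of NB1691, where repressors then exceeded activators. It changed by -0.19 in CHLA20 and by 0.25 in CHLA15. With GSK-J4 it was higher by 0.18 at 24 h and 0.17 at 48 h, since repressors fell by 26.8% and activators by 17.5% at 48 h. In the libraries labelled siKDM6B it was lower by 0.54. Libraries of the compared groups did not overlap in this ratio in any of the 7 comparisons. Of all tested single genes, 33.1% did not overlap for siKDM6B, 75.3% and 84.8% at 24 h and 48 h of GSK-J4, and 60% to 70.3% with palbociclib. Adding E2F7 and E2F8 to the repressors turned the difference in CHLA20 to 0.12, and adding E2F6 turned the one at 48 h of GSK-J4 to -0.0037.

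Within the activators the composition shifted in the NB lines. In untreated NB1643 E2F1 made up 73.8% of the activator sum, E2F3 21.2% and E2F2 5.02%. With palbociclib E2F3 made up 55.7%, E2F1 43.1% and E2F2 1.19%. In NB1691 the share of E2F3 went from 33.9% to 58.3% and that of E2F1 from 58.0% to 39.8%. In CHLA15 the share of E2F1 was 53.8% without and 53.7% with palbociclib, and in BE2C with GSK-J4 E2F1 stayed between 65.6% and 68.8% in all 6 libraries.

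**Figure D5:**
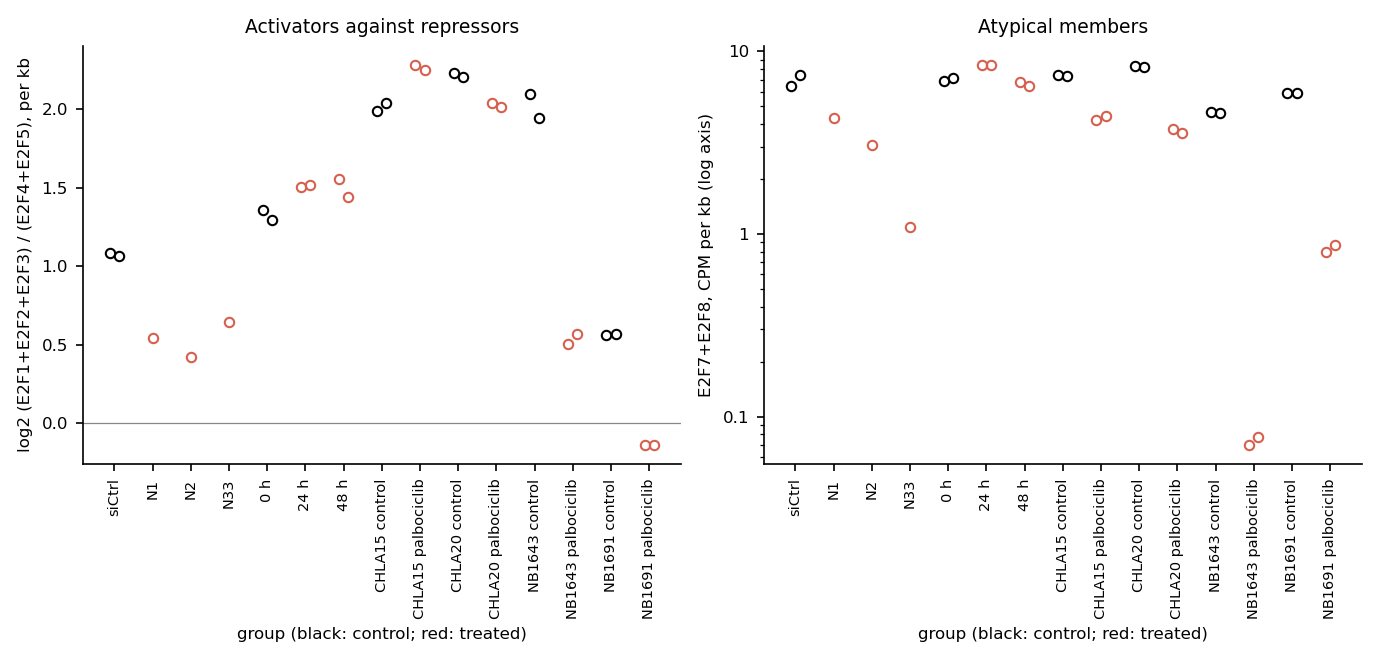
Log2 ratio of summed activators (E2F1, E2F2, E2F3) to summed repressors (E2F4, E2F5) in CPM per kilobase, 1 point per library, with a line at 0. The palbociclib libraries of NB1691 lie at -0.14, below 0, and those of NB1643 at 0.51 and 0.57.

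Genes around the family in the pathway were taken from fixed lists. Of 26 E2F target genes, which act in DNA replication, nucleotide supply and mitosis, 17 were lower in CHLA15 with palbociclib, and all 26 in CHLA20, NB1643 and NB1691, beside 15.6%, 15.9%, 19.7% and 15.5% of all tested genes. The median log2 changes of the list were -0.23, -0.58, -2.34 and -1.35, where the medians of all tested genes lay between -0.0021 and 0.019. RRM2, the small subunit of ribonucleotide reductase, changed by -0.10, -0.58, -4.66 and -4.01 in these lines, the first without a call, and MKI67, the proliferation marker, by -0.37, -0.58, -5.24 and -4.43. With GSK-J4 7 genes of the list were higher and 13 lower at 24 h (median -0.07), beside 27.3% and 28% of all tested genes, so that the number higher lay near the background. At 48 h 4 were higher and 20 lower (median -0.32), beside 37.1% and 34.4% of all tested genes. CDC6, the helicase loader, was among those higher at 24 h (0.24), and UHRF1 among the lower (-0.43). In the libraries labelled siKDM6B 0 passed. All 26 had a negative log2 change with a median of -0.80, where the median of all tested genes was 0.044. The 26 genes share the same libraries, so their signs are not separate evidence.

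Of the pocket proteins, RBL1 was lower in all 4 lines with palbociclib (log2 -0.46 in CHLA15, -0.72 in CHLA20, -1.55 in NB1643 and -1.09 in NB1691) and at both times of GSK-J4 (-0.10 and -0.25). RB1 was lower in CHLA20, NB1643 and NB1691 (-0.20, -0.51 and -0.39), and RBL2 in CHLA15, CHLA20 and NB1643 (-0.47, -0.27 and -0.18). Of all tested genes 15.5% to 19.7% were lower with palbociclib. With GSK-J4 1 of the 3 pocket proteins was higher and 2 were lower at 24 h, and 0 were higher and 2 lower at 48 h. At these times 27.3% and 37.1% of all tested genes were higher and 28% and 34.4% lower. Of the 7 genes of the MuvB complex and its partners, which join E2F4 or MYBL2 at cell cycle genes, 3, 4, 6 and 6 were lower in CHLA15, CHLA20, NB1643 and NB1691 and 0 higher, beside 15.5% to 19.7% of all tested genes lower and 13.7% to 20.3% higher. MYBL2 changed by -4.04 in NB1643 and -3.57 in NB1691 and FOXM1, which drives mitotic genes, by -3.64 and -3.37.

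Cyclin genes upstream of the pocket proteins went in both directions. CCND1, the cyclin that activates CDK4 and CDK6, was higher in all 4 lines with palbociclib (log2 1.01, 0.93, 0.80 and 0.89). Of 5 genes of cyclin D and its kinases, 2, 1, 2 and 3 were higher and 0, 1, 1 and 0 lower in CHLA15, CHLA20, NB1643 and NB1691. Beside the 13.7% to 20.3% of all tested genes that were higher and the 15.5% to 19.7% that were lower, counts of 1 in 5 lie near the background. CCNE1 was higher in CHLA15 (0.90) and CHLA20 (0.57), while CCNE2 was lower in CHLA20 (-0.55), NB1643 (-3.43) and NB1691 (-2.86). CCNA2 and CDK2 were lower in all 4 lines. Among 7 CDK inhibitors, CDKN2C, which binds CDK4 and CDK6, was lower in all 4 lines (-0.44, -0.38, -1.37 and -1.07), and CDKN2A was lower in CHLA15, CHLA20 and NB1643 (-0.78, -1.55 and -0.85). Of the 7, 4, 4, 5 and 4 were lower with palbociclib in CHLA15, CHLA20, NB1643 and NB1691, and 1, 1, 0 and 1 higher. Of all tested genes 15.5% to 19.7% were lower and 13.7% to 20.3% higher. With GSK-J4 the inhibitor gene CDKN1A was higher by 2.48 at 24 h and 2.47 at 48 h, and CDKN1C by 1.86 and 3.06. The 7 inhibitors did not move as a class with GSK-J4. At 24 h 2 were higher and 2 lower, beside 27.3% and 28% of all tested genes. At 48 h 3 were higher and 3 lower, beside 37.1% and 34.4%.

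Of 4 genes linked to the breakdown of E2F proteins (SKP2, CCNF, FZR1 and FBXO5), 3, 3, 4 and 3 were lower in CHLA15, CHLA20, NB1643 and NB1691. With GSK-J4 all 4 were lower at 24 h and 48 h, and 0 were higher in these comparisons. Of all tested genes 15.5% to 19.7% were lower with palbociclib, and 28% and 34.4% with GSK-J4. SKP2 and CCNF, ligase subunits that target E2F1 and other family members, were lower in all 4 lines and at both times of GSK-J4. SKP2 changed by -0.54, -0.77, -0.70 and -0.79 in CHLA15, CHLA20, NB1643 and NB1691, and CCNF by -0.85 and -1.64 at 24 h and 48 h of GSK-J4. Of the 10 partners of E2F6 in its Polycomb complex, MAX and RYBP were higher in all 4 lines, by 0.20 to 0.33 and by 0.18 to 0.30. PCGF6, the subunit that defines the complex, was lower in CHLA20, NB1643 and NB1691 (-0.31, -0.51 and -0.42). Of these 10 partners 2, 2, 3 and 2 were higher and 0, 2, 3 and 3 lower in CHLA15, CHLA20, NB1643 and NB1691. With GSK-J4 1 was higher and 4 lower at 24 h, and 5 higher and 4 lower at 48 h. Of all tested genes 13.7% to 20.3% were higher and 15.5% to 19.7% lower with palbociclib. With GSK-J4 27.3% and 37.1% were higher and 28% and 34.4% lower, so the counts of these partners lay near the background. Of 4 germline genes with E2F6 sites, 2 were expressed enough to be tested with GSK-J4. STAG3, a meiotic cohesin subunit, was higher at 24 h (1.95) and 48 h (1.79), and SMC1B was higher at 48 h (3.22). Of all tested genes 27.3% were higher at 24 h and 37.1% at 48 h. With palbociclib 2 genes of the list were tested and 0 were higher in any line. In CHLA15 and NB1691 1 was lower, beside 15.6% and 15.5% of all tested genes.

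Genes with the pattern most like each member were ranked by Pearson r of log2 CPM over 27 libraries, after centring 6 blocks (the siRNA and GSK-J4 experiments and the 4 palbociclib lines) on their means, among 16067 genes. The values describe these libraries, which within a block share treatments and scaling, and no p is attached. E2F1 and E2F8 were each other's nearest (r = 0.987). E2F1 was next most like GINS2 (0.982) and CDC6 (0.980), and E2F8 next most like ATAD2 and ORC1 (both 0.987). E2F2 was most like RRM2 (0.985), TYMS (0.982) and MKI67 (0.980), and E2F7 most like MNS1 (0.984) and KNTC1 (0.982). E2F1, E2F2, E2F7 and E2F8 had r of 0.951 to 0.987 with one another. The other 6 genes were unlike these 4, with r between -0.38 and 0.56. Large changes weigh most in r, and the 4 genes changed by log2 -6.55 to -1.40 with palbociclib in NB1643 and NB1691. At 24 h of GSK-J4 they parted, with 0.41 for E2F7 against -0.04, 0.03 and -0.10 for E2F1, E2F2 and E2F8. No r was computed within single blocks.

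The remaining genes had lower top values. E2F3 was most like PLAA (0.894), DNAJA2 (0.893) and PBDC1 (0.884), and correlated with E2F6 at 0.833. E2F4 was most like TBL3 (0.960), FAM118A (0.959) and NOC2L (0.943), and E2F5 most like SPPL2A (0.913), FBXL5 (0.898) and RIPK2 (0.896). E2F6 was most like CMAS (0.951), CBL (0.919) and ZMAT3 (0.917). TFDP1 was most like ITGB1BP1 (0.955), PTP4A2 (0.941) and CIB1 (0.933), and TFDP2 most like RBFOX2 (0.929), PPM1L (0.922) and CLSTN2 (0.913). TFDP1 and TFDP2 themselves correlated at -0.19. With each block centred on its control libraries in place of its mean, CDC6 for E2F1, MKI67 for E2F2, PLAA and PBDC1 for E2F3, FBXL5 for E2F5, ZMAT3 for E2F6, ATAD2 and ORC1 for E2F8 and CLSTN2 for TFDP2 were no longer among the 3 genes most like the member.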

How the data were processed

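Total RNA of BE2C, CHLA15, CHLA20, NB1643 and NB1691 cells was sequenced, as the labels and the study's methods describe; the extraction text of the labels speaks of xenograft tissue. The authors aligned paired reads to GRCh37 (STAR 2.5.3a per the submitters' processing notes), counted them per gene with htseq-count and deposited raw counts per gene symbol, without normalization. The methods name a mouse annotation, while the symbols are human. Groups, doses and times were taken from the labels.

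Each BE2C library was the sum of 2 files (22 files, 11 libraries), which with the 16 of the palbociclib experiment gave 27 libraries. The chi-square per degree of freedom between files of 1 library was 1.48 to 1.65, and 1.89 to 4.33 between files of different replicates. Taking each KDM6B siRNA as 1 library is an assumption, since its files carry 1 number. The 3 experiments were fitted apart with edgeR 4.0.16 in R 4.3.3 (TMM, filterByExpr, quasi-likelihood test, Benjamini-Hochberg adjustment over all tested genes, threshold 0.05), on 17472, 17734 and 22133 genes. Both siCtrl libraries were set against the 3 libraries labelled siKDM6B, all 6 GSK-J4 libraries shared 1 fit, and all 16 palbociclib and control libraries shared 1 fit with a group per line and treatment. Intervals are 95% from the model, and log2 CPM used a prior count of 2. The floor covers counting error only, as reads lacked molecular identifiers. The fits were tested on simulated counts. Lengths came from the GRCh37 annotation and promoters from RefSeq (GRCh38.p14), matched to GRCh37 by sequence.

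Alternatives were DESeq2 1.42.0, limma-voom (limma 3.58.1, the study's method), other scalings, no filter, the compared groups alone, each library left out, a replicate block and each file as a sample. The 10 genes and the pathway lists were chosen with earlier results of these data known. Named genes are the 10 members, the genes of the lists, the 3 genes most like each member (1 is not reported here), KDM6B and MYCN. Other assays of the study were not analysed here.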

Additional observations from a re-analysis of the deposited data

Results flagged for a closer look

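Palbociclib effects that differed between lines given the same dose were looked at again, through edgeR's interaction test with adjustment over all 22133 genes. Between CHLA20 and CHLA15 the log2 effect differed by -0.45 for E2F1 and -0.52 for E2F8, each lower in CHLA20. Between NB1691 and NB1643 it differed by 1.004 for E2F1, 0.79 for E2F2, 0.56 for E2F5, 2.85 for E2F7, 2.53 for E2F8 and 0.38 for TFDP1, each a smaller fall in NB1691. The untreated levels also differed between NB1643 and NB1691 for all 6 of these genes, and E2F5 was at 2.20 ± 0.186 CPM (SD, n = 2) in NB1691 before treatment. E2F7 and E2F8 in treated NB1643 rest on 7 to 15 counts per library.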

How the results depend on the processing

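Of the values of single genes that passed the test, 621 of 662 kept their direction and their call under the alternatives, 41 kept only their direction and 0 reversed. Of the 648 values without a call, 574 stayed so, 33 passed under an alternative and 41 changed sign.

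With DESeq2, 157 genes were called for siKDM6B, 0 members were higher at 48 h of GSK-J4 and 1 in NB1643, and 4 members and 831 genes differed between CHLA20 and CHLA15. DESeq2 gave TFDP2 from 24 h to 48 h a log2 change of -0.0015 and E2F5 in CHLA15 one of 0.0026. DESeq2 size factors within edgeR gave the same 2 genes -0.0014 and 0.0022, and 1 member higher in NB1643. Without a filter 84 genes were called for siKDM6B and 846 between CHLA20 and CHLA15, 1 member was higher in CHLA20 and 1 in NB1643, E2F6 at 24 h was at 1.9e-05 and TFDP2 from 24 h to 48 h at -0.0082. The compared groups alone gave 2 members higher in CHLA15, 239 genes between CHLA20 and CHLA15 and 0.0035 for E2F6 at 24 h. Each file as a sample gave 3 members lower and 2354 genes called for siKDM6B, 2 members higher at 48 h and 0.012 for E2F6 at 24 h.

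Library totals gave 2 members higher at 48 h and 1 lower between NB1691 and NB1643. They changed the sign of E2F6 at 24 h (0.017), E2F7 at 48 h (0.012), E2F6 in CHLA15 (-0.0035), E2F4 in NB1643 (-0.018) and E2F6 between CHLA20 and CHLA15 (0.023). Upper quartiles gave 2 members higher at 48 h, 1 from 24 h to 48 h and 1 in NB1643. They changed the sign of E2F1 (0.0075) and E2F6 (0.041) at 24 h, E2F7 at 48 h (0.078), E2F3 (0.015) and E2F5 (0.0037) from 24 h to 48 h and E2F6 between CHLA20 and CHLA15 (0.0079).

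Leaving out 1 library at a time moved the members called higher at 48 h between 0 and 1, those higher in CHLA20 and in NB1643 between 0 and 1, those lower between CHLA20 and CHLA15 between 0 and 4, and the genes called there between 50 and 1305. The log2 changes that crossed 0 in it, none of them called, were E2F1 (-0.090 to 0.014) and E2F6 (-0.056 to 0.050) at 24 h, E2F7 at 48 h (-0.11 to 0.033), TFDP2 from 24 h to 48 h (-0.0047 to 0.021), E2F6 (-0.067 to 0.021) and TFDP2 (-0.092 to 0.17) between CHLA20 and CHLA15, E2F1 (-0.013 to 0.092), E2F5 (-0.078 to 0.046) and E2F6 (-0.015 to 0.072) in CHLA15, E2F6 in CHLA20 (-0.035 to 0.044), E2F4 in NB1643 (-0.035 to 0.055), E2F5 in NB1691 (-0.30 to 0.025), and E2F3 (-0.024 to 0.34), E2F4 (-0.24 to 0.048) and E2F6 (-0.0026 to 0.52) with siKDM6B.

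With E2F7 and E2F8 among the repressors the difference of the log2 ratio of activators to repressors was -0.30 with siKDM6B, 0.051 and 0.081 at 24 h and 48 h, 0.42 in CHLA15, 0.12 in CHLA20, -1.09 in NB1643 and -0.39 in NB1691. With E2F6 among them it was 0.11 and -0.0037 at 24 h and 48 h, 0.15 in CHLA15, -0.24 in CHLA20 and -0.69 in NB1691.

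Same-numbered libraries did not deviate together (correlations of -0.0628 to 0.0483). The labels do not say whether they were set up together, and the main fits used no pairing. A replicate block gave E2F8 at 48 h a call (log2 -0.20, adjusted p = 0.04997) and E2F2 between CHLA20 and CHLA15 (-0.40, adjusted p = 0.0342), and took those of E2F5 (-0.27, adjusted p = 0.0565) and TFDP1 (-0.15, adjusted p = 0.0623) in CHLA20. It changed no other call of a member, and the siRNA libraries share too few numbers for one. With 2 libraries per group the precision is set by the pooled spread, and with siRNA the spread between siRNAs limits what can be called. The cause of these changes was not tested.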
